A study of Mus musculus with 22 samples.

Results

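The comparison set the late day against the late night in the kidney of normal mice. It used the 7 wild-type (WT) arrays taken at circadian times ZT8 and ZT12 (late day, 3 arrays) and at ZT20 and ZT0 (late night, 4 arrays), out of 22 arrays in the series, chosen by their titles. ZT is the time in hours after lights-on at ZT0, with lights-off at ZT12, so the windows are centred near circadian hours 10 and 22. All mice, WT and Clock knockout (KO, from heterozygous Clock breeding pairs), had 12 h of light and 12 h of darkness for 2 weeks and then 30 h of constant darkness before they were killed, so the hours are those of the running clock and not of light. Each array held RNA of whole kidney, labelled as left kidney, pooled from 2 or 3 mice, with 2 pools per time and genotype except for 1 pool in WT at ZT8 and 1 in KO at ZT16. The labels give neither sex nor age. They do not say whether pools differed in litter or day, so pool-to-pool spread may be technical. The p-values of the window comparison rest on the spread of arrays within a window. That spread holds pool-to-pool differences and also change between the times of the window. The p-values of the later comparisons, fitted by time, rest on pool-to-pool spread. Each gene is read by its brightest probe set on an Affymetrix array, as a log2 RMA value (robust multi-array average, a normalized intensity), and a difference of 1 log2 is a doubling.

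The circadian clock is a transcriptional loop. CLOCK and BMAL1 (gene Arntl) bind E-boxes and switch on the Per and Cry genes, Ciart, the REV-ERB receptors Nr1d1 and Nr1d2, and the D-box factors Dbp, Tef and Hlf, and the PER, CRY, CIART and DEC proteins then shut CLOCK and BMAL1 off. The REV-ERB proteins repress Arntl and Nfil3 through ROR elements, so these genes run opposite to Per and Dbp. In the kidney this clock is known to reach genes of salt, water, acid and organic ion transport and of intermediary metabolism.

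The 7 arrays were alike overall. Their correlations over all tested genes lay between 0.982 and 0.996, and no files held identical values. The first principal component of the 7 arrays carried 34.56% of their variance and had WT ZT12 pool 1 (-20.0) and WT ZT20 pool 2 (16.6) at its ends, while the second carried 30.74% and placed the late day arrays between -14.2 and -2.08 and the late night arrays between -2.96 and 13.6. The labelled tissue was borne out by its markers: Kap, Slc34a1 and Lrp2 of the proximal tubule and Umod of the thick ascending limb stood between 12.6 and 13.6 log2 on every one of the 7 arrays. No gene of the 13 cell type lists was called (Alb of the liver list was, at 0.51 log2, with the pool number as a block, adjusted p = 0.0421), and the lists' median differences ran from -0.18 (distal convoluted tubule, 7 markers) to 0.145 (liver, 5 markers). In whole kidney, fewer cells of a type and less RNA per cell cannot be told apart.

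Of 13967 genes tested, 146 (1.05%) differed between late day and late night at an adjusted p under 0.05 (limma with Benjamini-Hochberg adjustment over all genes). In the late day 94 genes (0.673%) were higher and 52 (0.372%) were lower, and 2051 genes passed an unadjusted p of 0.05. The split depended on the scaling: subtracting each array's median gave 60 higher and 58 lower, and a repeated quantile normalization gave 70 higher and 86 lower. Most differences were modest, with a median size of 0.488 log2 for the higher genes and 0.627 log2 for the lower genes, and 10 higher and 9 lower genes reached 1 log2. The median difference of all genes was 0.023 log2. Each called gene had groups that did not overlap and the same sign within pool 1 and within pool 2. Over all genes, 10.8% had late day values entirely above the late night values and 4.15% entirely below, and 8824 of 13967 kept one sign in both pools. A 24 h wave fitted to the 11 WT arrays, which include the 7 used here, put the peaks of the higher genes between ZT7.53 and ZT12.5 (median ZT9.64) and those of the lower genes between ZT19.19 and ZT0.71 (median ZT22.38). The genes had been chosen for their difference on those 7 arrays, so these peaks largely follow from the choice. The number of calls moved with single arrays: it was 110 without ZT8 pool 1, 52 without ZT12 pool 1, 52 without ZT12 pool 2, 45 without ZT20 pool 1, 167 without ZT20 pool 2, 58 without ZT0 pool 1 and 62 without ZT0 pool 2. With the pool number as a block, 136 genes were higher and 81 lower in the late day, and all 146 were among them. Of the 146 genes, 42 kept their call in all 7 of these fits and 22 lost it in all 7. Below, a call is said to hold where it was kept in all 7, and otherwise the number of fits that lost it stands beside it.

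**Figure D1:**
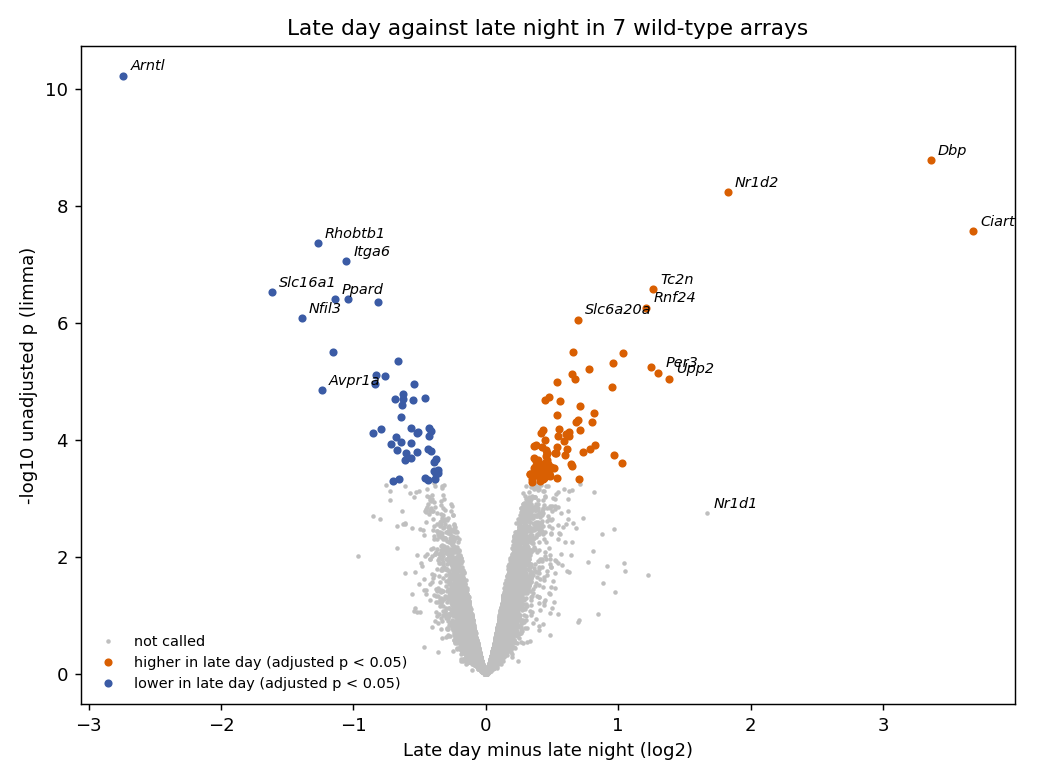
Late day minus late night difference in log2 (horizontal) against -log10 of the unadjusted limma p (vertical) for the 13967 genes, one point per gene. Orange points are the 94 genes higher and blue points the 52 genes lower in the late day. Arntl, Dbp, Nr1d2 and Ciart lie farthest from the bulk, and Nr1d1, with a difference of 1.67 log2, was not called.

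Clock genes led both directions. The gene lists here and below were chosen with earlier results of these data known, so their counts are not independent of them. In the fit of the 7 WT arrays, 5 of 10 clock repressors were higher in the late day and none lower. The median difference of the 10 was 1.14 log2, and 8 had late day values that all lay above the late night values. Over all genes, 0.673% were called higher and 10.8% had values so separated. Ciart, a repressor of CLOCK and BMAL1, read 8.39 at ZT8 and 9.33 and 8.45 at ZT12, against 5.25 and 4.86 at ZT20 and 4.96 and 5.11 at ZT0. The groups lay far apart, and the difference was 3.68 ± 0.21 log2 (SE; adjusted p = 9.37e-05), 12.8-fold higher in the late day and the largest difference of all genes tested. Its other probe set differed by 2.82 log2. Nr1d2, a REV-ERB receptor, read 9.87, 9.92 and 9.97 in the late day and 7.90, 8.08, 8.28 and 8.12 in the late night (1.83 ± 0.09 log2, adjusted p = 2.71e-05). Per3 read 7.29, 7.62 and 7.53 in the late day against 6.36, 6.45, 5.90 and 6.02 in the late night (1.30 ± 0.14 log2, adjusted p = 0.00442). Bhlhe41, which encodes the DEC2 repressor, differed by 1.25 ± 0.13 log2 (adjusted p = 0.00389). These 4 calls held. Per1 stood between the late night and ZT12 levels at ZT8, with 7.69, 8.32 and 8.32 in the late day against 7.24, 7.33, 6.87 and 6.89 in the late night (1.03 ± 0.18 log2, adjusted p = 0.0339), and its call was lost in 5 of the 7 fits.

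The other 5 repressors were not called in the fit of the 7 WT arrays. That fit counts change between the times of a window as spread. In the fit of all WT and KO arrays by time, all 5 were called between the WT windows. In the late day Nr1d1, Per2, Cry2 and Bhlhe40 were higher by 1.85, 0.76, 0.57 and 0.49 log2 (adjusted p from 0.000638 to 0.0303). Cry1 was lower there (-0.73 log2, adjusted p = 0.0168). The values that follow are from the fit of the 7 WT arrays. Nr1d1, the other REV-ERB receptor, read 10.19 at ZT8 but 9.04 and 9.15 at ZT12, against 7.19 and 7.21 at ZT20 and 8.29 and 8.47 at ZT0, with groups that did not overlap (1.67 ± 0.38 log2, adjusted p = 0.0821). Per2 read 7.35 at ZT8 and 8.31 and 8.23 at ZT12, against 7.64 and 7.32 at ZT20 and 6.65 and 6.57 at ZT0, so its groups overlapped (0.92 ± 0.30 log2, adjusted p = 0.197). Cry1 ran later still, at 5.92, 7.06 and 6.99 in the late day against 7.47, 7.51, 6.90 and 6.92 in the late night (-0.54 log2, adjusted p = 0.42). Cry2 and Bhlhe40 differed by 0.61 and 0.48 log2 with groups that did not overlap and adjusted p of 0.215 and 0.0898.

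Of the 3 activators tested, Arntl and Clock were lower in the late day. Arntl, the gene of BMAL1, read 5.58, 5.69 and 5.58 in the late day against 8.36, 8.19, 8.41 and 8.47 in the late night, which is 6.68-fold lower in the late day (-2.74 ± 0.08 log2, adjusted p = 8.34e-07). The late day arrays stood together at the low end and the late night arrays together at the high end. Clock, the partner of BMAL1, moved the same way by less, with 8.49, 8.63 and 8.47 in the late day against 9.06, 9.01, 9.16 and 9.10 in the late night (-0.55 ± 0.07 log2, adjusted p = 0.00738). Both calls held. Rora, whose protein competes with REV-ERB at ROR elements, was the remaining activator tested and ran the other way. Its late day values all lay above its late night values, without a call (0.27 log2, adjusted p = 0.147).

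The D-box factors split by their sign of action. Dbp, an activator, read 10.83, 10.50 and 10.60 in the late day against 7.43, 7.58, 7.10 and 7.03 in the late night, a 10.3-fold difference (3.36 ± 0.14 log2, adjusted p = 1.16e-05). Tef, a related activator, read 9.67, 9.96 and 9.94 in the late day and 8.97, 8.91, 8.69 and 8.69 in the late night (1.04 ± 0.10 log2, adjusted p = 0.00268). Nfil3, the repressor that binds the same D-boxes, was lower in the late day, at 6.15, 6.65 and 6.38 against 7.95, 7.76, 7.76 and 7.66 in the late night (-1.39 ± 0.12 log2, adjusted p = 0.000876). These 3 calls held, and Hlf, the last member, overlapped between the windows (0.29 log2, adjusted p = 0.345).

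**Figure D2:**
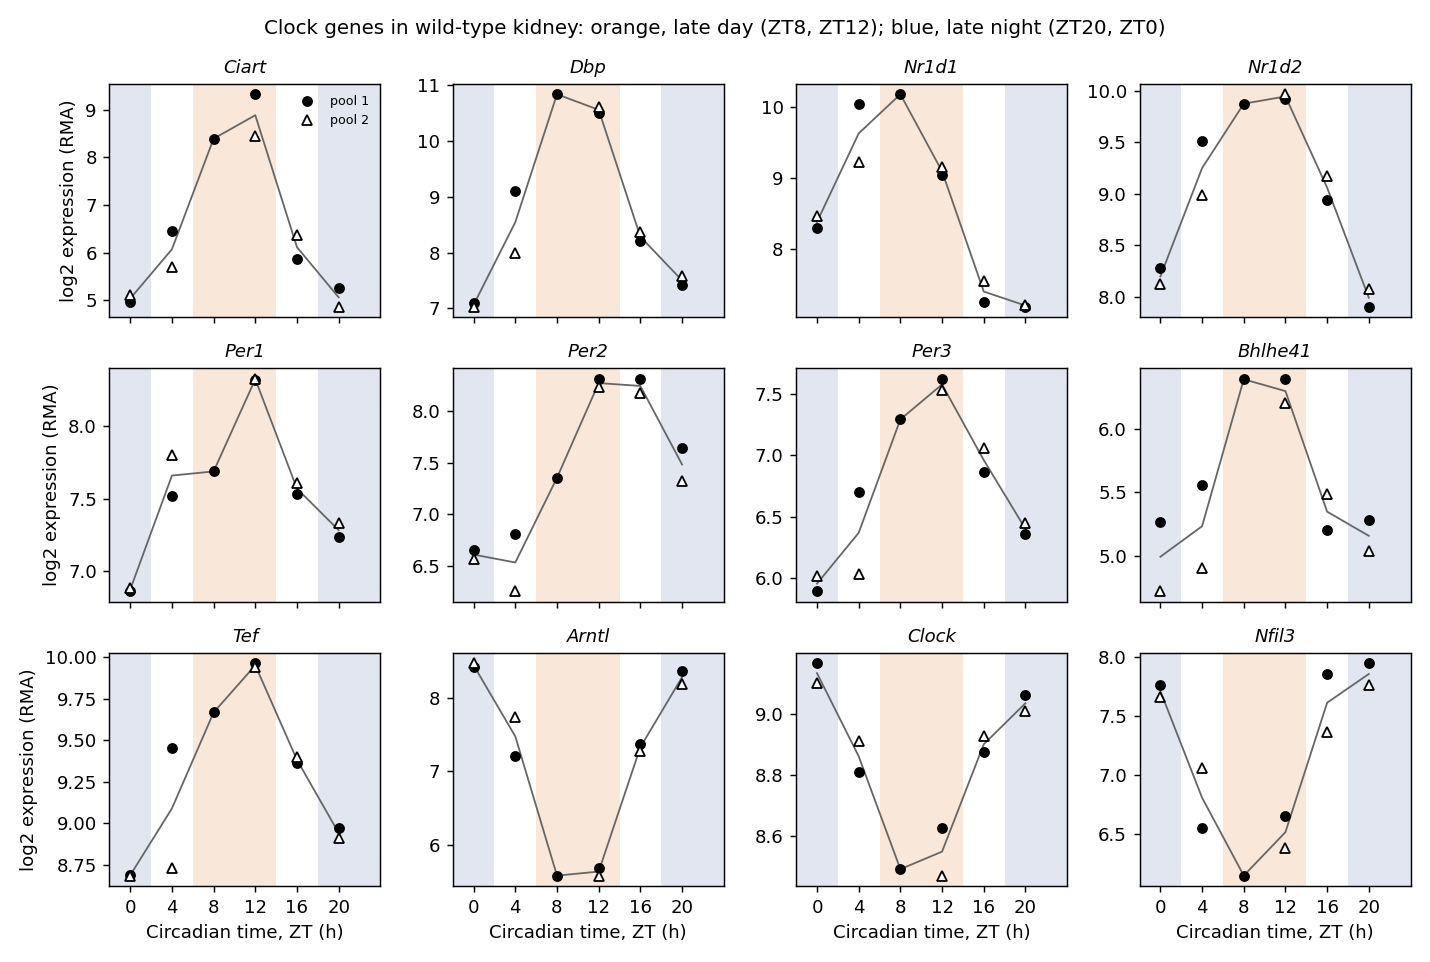
log2 RMA expression (vertical) of 12 clock genes against circadian time in hours (horizontal) on the 11 WT arrays, with pool 1 as filled circles, pool 2 as open triangles and a line through the means. Orange shading marks the late day and blue shading the late night. Ciart, Dbp and Nr1d2 stand high at both late day times, Arntl, Clock and Nfil3 stand low there, and Nr1d1 and Per2 change level between ZT8 and ZT12.

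Promoter windows of 6 genes, chosen after the matches were seen, show where the elements of the loop stand: 3 clock repressors higher in the late day, and Arntl, Nfil3 and the carrier Slc16a1, lower in the late day. They are 300 bases long, from 250 before to 50 after the RefSeq start (assembly GRCm38.p6), 5′ to 3′ on the gene's strand, with E-boxes (CACGTG), variant E-boxes (CACGTT), ROR elements (TAGGTCA) or D-boxes (TTATGTAA or TTACGTAA) in capitals, in either orientation. Ciart lies at chr3:95882179-95882478 (minus strand), Per1 at chr11:69098699-69098998 (plus), Per3 at chr4:151044616-151044915 (minus), Arntl at chr7:113207261-113207560 (plus), Nfil3 at chr13:52980990-52981289 (minus) and Slc16a1 at chr3:104638414-104638713 (plus).
Ciart: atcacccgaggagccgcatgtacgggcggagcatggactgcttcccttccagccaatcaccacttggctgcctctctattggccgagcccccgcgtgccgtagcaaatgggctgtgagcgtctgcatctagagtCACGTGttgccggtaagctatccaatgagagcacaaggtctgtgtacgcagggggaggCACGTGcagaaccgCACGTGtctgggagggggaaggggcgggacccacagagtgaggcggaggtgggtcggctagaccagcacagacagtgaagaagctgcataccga
Per1: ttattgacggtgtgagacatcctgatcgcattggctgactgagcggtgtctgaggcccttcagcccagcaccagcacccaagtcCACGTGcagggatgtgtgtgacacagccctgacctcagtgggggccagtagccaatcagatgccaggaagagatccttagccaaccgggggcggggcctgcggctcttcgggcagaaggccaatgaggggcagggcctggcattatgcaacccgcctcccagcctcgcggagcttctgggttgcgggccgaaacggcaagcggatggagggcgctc
Per3: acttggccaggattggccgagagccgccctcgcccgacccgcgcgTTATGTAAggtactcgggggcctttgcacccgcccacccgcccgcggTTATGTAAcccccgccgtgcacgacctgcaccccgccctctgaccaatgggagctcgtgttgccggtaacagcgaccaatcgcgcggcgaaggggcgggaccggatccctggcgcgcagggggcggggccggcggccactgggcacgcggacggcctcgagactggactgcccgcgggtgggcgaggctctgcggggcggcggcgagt
Arntl: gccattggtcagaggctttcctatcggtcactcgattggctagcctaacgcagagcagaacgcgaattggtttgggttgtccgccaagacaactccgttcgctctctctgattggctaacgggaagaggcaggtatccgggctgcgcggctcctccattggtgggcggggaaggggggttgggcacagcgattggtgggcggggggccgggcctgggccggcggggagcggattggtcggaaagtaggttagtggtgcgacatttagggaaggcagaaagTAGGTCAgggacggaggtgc
Nfil3: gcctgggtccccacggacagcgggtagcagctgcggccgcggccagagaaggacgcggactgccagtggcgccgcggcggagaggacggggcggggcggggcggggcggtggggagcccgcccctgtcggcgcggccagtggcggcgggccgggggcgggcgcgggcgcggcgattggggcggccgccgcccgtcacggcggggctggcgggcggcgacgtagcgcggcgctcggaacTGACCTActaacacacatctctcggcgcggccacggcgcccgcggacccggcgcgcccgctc
Slc16a1: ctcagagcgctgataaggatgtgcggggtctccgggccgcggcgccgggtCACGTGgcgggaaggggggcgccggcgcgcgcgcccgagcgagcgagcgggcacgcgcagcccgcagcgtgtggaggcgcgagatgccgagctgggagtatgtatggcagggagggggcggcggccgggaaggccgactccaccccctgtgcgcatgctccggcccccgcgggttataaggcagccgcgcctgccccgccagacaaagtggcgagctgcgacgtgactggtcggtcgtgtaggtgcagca

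Ciart carried 3 E-boxes and Per1 1 among the genes higher in the late day, and Per3 carried 2 D-boxes. Arntl and Nfil3, lower in the late day, each carried 1 ROR element, on the complementary strand in Nfil3. The E-box was found on the lower side too, with 1 each in Slc16a1 and Rhobtb1, while the windows of Dbp and Nr1d2 on the higher side held none of these motifs. Windows were found for 79 of the 94 higher genes, 41 of the 52 lower genes and 11052 of all tested genes. An E-box stood in the window of 21.52% of the higher genes, 12.2% of the lower genes and 11.34% of all genes. The variant E-box stood in 3.8% of the higher genes, 9.76% of the lower genes and 6.17% of all genes. A D-box stood in 5.06% of the higher genes, in 0 of 41 lower genes and in 0.87% of all genes, and a ROR element in 2.53% of the higher genes, 7.32% of the lower genes and 2.47% of all genes. These are matches of letters in a short window, given without a test, and are not shown to be bound.

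Of 14 other genes listed as clock outputs, 3 were higher and 4 lower in the late day, against 0.673% and 0.372% of all genes. The list was chosen with earlier results of these data known, so the count is not independent of them. Wee1, a kinase that holds back entry into mitosis, read 8.70, 9.21 and 9.11 in the late day against 8.36, 8.11, 7.95 and 7.74 in the late night (0.97 ± 0.16 log2, adjusted p = 0.028, lost in 4 of 7 fits). Tspan4, a tetraspanin, and Usp2, a deubiquitinase, differed by 0.81 and 0.73 log2 (adjusted p = 0.0112 and 0.0264, lost in 2 and 5 of 7 fits). On the other side, Rhobtb1 read 8.04, 8.12 and 7.88 in the late day against 9.24, 9.24, 9.26 and 9.39 in the late night (-1.27 ± 0.08 log2, adjusted p = 0.000121). Ypel2 differed by -1.16 ± 0.11 log2 (adjusted p = 0.00268), and both of these calls held. Dtx4, a deltex-family ubiquitin ligase, and Leo1, a subunit of the PAF complex of transcription elongation, differed by -0.85 and -0.68 log2 (adjusted p = 0.0177 and 0.0187), and lost their calls in 5 and 4 of the 7 fits.

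Carriers and a hormone receptor followed on the late night side. The widest difference after Arntl was that of Slc16a1, the proton-coupled carrier of lactate, pyruvate and ketone bodies, at 8.45, 8.25 and 7.97 in the late day against 9.63, 9.82, 9.92 and 9.97 in the late night. It was 3.07-fold lower in the late day (-1.62 ± 0.12 log2, adjusted p = 0.000522), and the call held. It was the 1 called gene of 10 in the lactate and monocarboxylate list, whose median difference was 0.004 log2. Avpr1a, a vasopressin receptor, read 7.92, 7.52 and 7.24 in the late day against 8.65, 8.81, 8.76 and 8.98 in the late night (-1.24 ± 0.15 log2, adjusted p = 0.0061), and the call held. The other call among 15 water and urea genes was Slc14a2, the urea transporter of the inner medulla and thin limbs (-0.39 log2, adjusted p = 0.0337, lost in 6 of 7 fits). Aqp2, the vasopressin-regulated water channel, read 10.51, 10.53 and 10.52 in the late day and 10.79, 10.63, 10.53 and 10.49 in the late night, which overlap. Slc10a2, the sodium-driven bile acid carrier, was lower in the late day at 8.81, 8.78 and 8.53 against 9.67, 9.79, 9.78 and 9.75 in the late night (-1.04 ± 0.08 log2, adjusted p = 0.000545), whereas Nr1h4, the bile acid receptor, was higher in the late day (0.71 ± 0.09 log2, adjusted p = 0.0086). Both of these calls held.

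Several further genes of the late night side act at the cell surface or in its matrix. Itga6, a laminin-binding integrin subunit, read 8.84, 8.92 and 8.79 in the late day against 10.01, 9.84, 9.84 and 9.92 in the late night (-1.05 ± 0.07 log2, adjusted p = 0.000204). Npnt, an integrin ligand of the kidney's basement membranes, differed by -0.83 ± 0.09 log2 (adjusted p = 0.00442). Nt5e, the ecto-enzyme that makes adenosine from AMP, read 9.20, 9.32 and 9.24 in the late day against 10.13, 10.05, 10.01 and 10.11 in the late night (-0.82 ± 0.06 log2, adjusted p = 0.000545). Ccdc141, a coiled-coil protein, differed by -0.83 log2 (adjusted p = 0.00516), with all 5 of its probe sets between -0.88 and -0.57 log2, and these 4 calls held. Of 11 extracellular matrix genes none was called, with a median of -0.256 log2, but with the pool number as a block Col3a1 and Col1a1, of the fibrillar collagens, were lower in the late day (-0.62 and -0.43 log2, adjusted p = 0.0229 and 0.0426). Ppm1h, a phosphatase, differed by -0.68 log2 (adjusted p = 0.00738, held). Dcdc2a, a protein of cilia, and the microRNA gene Mir196a-1 differed by -0.71 and -0.70 log2 (adjusted p = 0.023 and 0.0485) and lost their calls in 5 and 6 of the 7 fits.

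**Figure D3:**
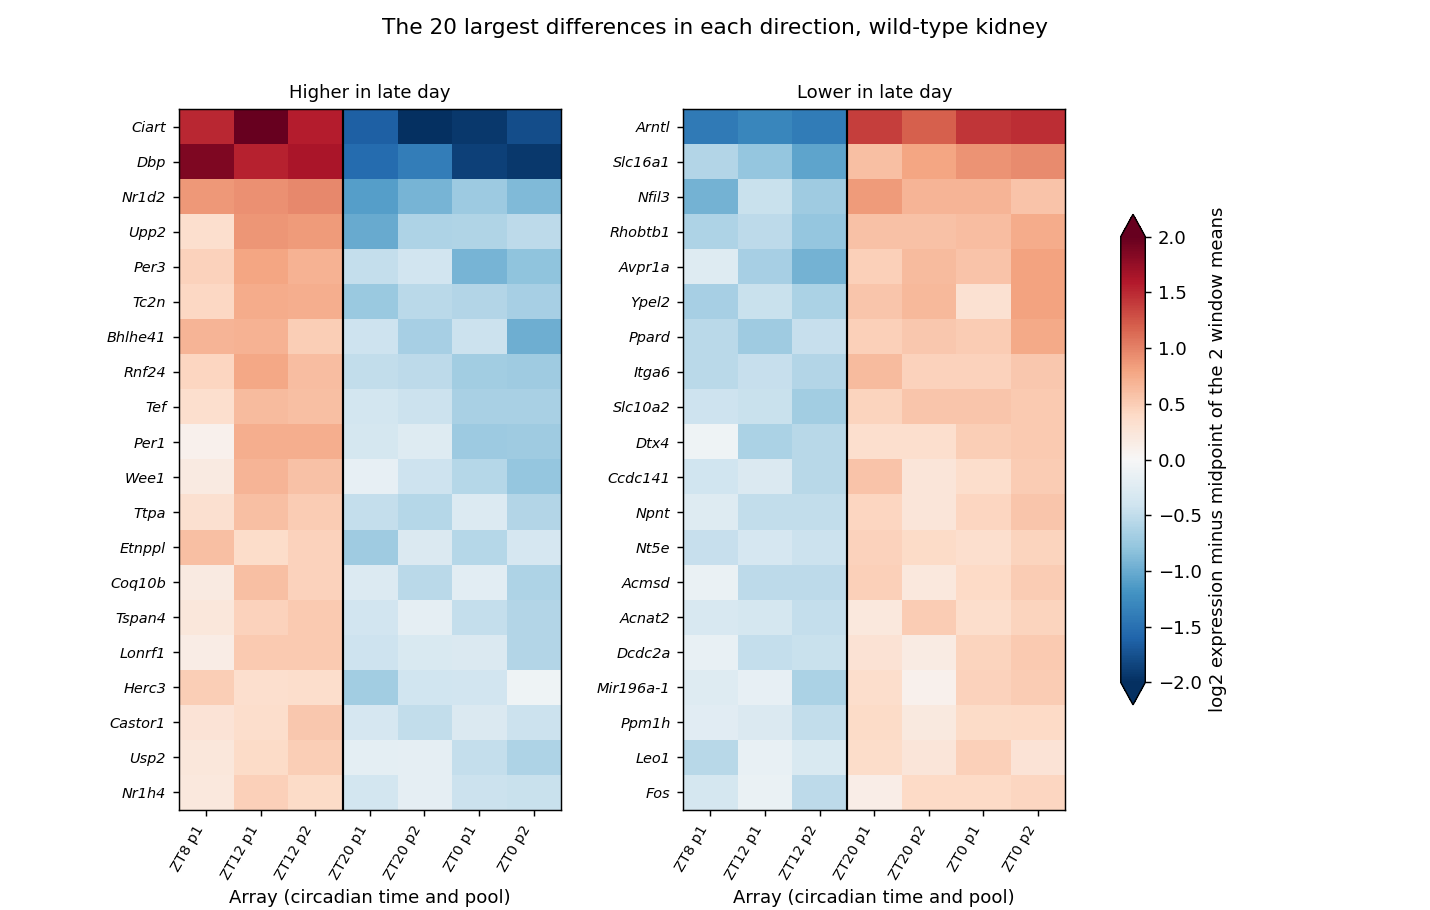
Expression of the 20 called genes with the largest positive (left) and the 20 with the largest negative (right) difference on the 7 WT arrays. Color gives log2 expression minus the midpoint of the 2 window means, and is cut at 2 log2 either way. The 3 late day arrays stand left of the black line and the 4 late night arrays right of it, and each row changes color at the line.

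Enzymes of nucleoside and NAD metabolism were among the genes high in the late day. Upp2, a uridine phosphorylase of pyrimidine salvage, read 8.12, 8.67 and 8.63 in the late day against 6.77, 7.17, 7.17 and 7.25 in the late night (1.38 ± 0.15 log2, adjusted p = 0.00461), and the call held. It belonged to a list of 14 genes of NAD and nucleoside metabolism, chosen, like the other lists, with earlier results of these data known. Of these, 3 were higher and none lower, with a median of 0.22 log2 and 8 with late day values all above the late night values. Over all genes, 0.673% were called higher and 10.8% had values so separated. Nadsyn1, which makes NAD from its deamidated precursor, and Xdh, which forms uric acid, differed by 0.39 and 0.38 log2 (adjusted p = 0.0313 and 0.0386, lost in 6 and 7 of 7 fits). Nampt, the rate-limiting enzyme of NAD salvage, read 9.98, 10.36 and 10.28 in the late day against 9.88, 9.84, 9.72 and 9.74 in the late night and missed the threshold (0.41 log2, adjusted p = 0.0866). Acmsd, which diverts tryptophan breakdown away from NAD synthesis, ran the other way (-0.80 ± 0.11 log2, adjusted p = 0.0174, lost in 5 of 7 fits).

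Among 16 genes of fatty acid handling and PPAR action, 2 were higher and 1 lower in the late day, against 0.673% and 0.372% of all genes. The PPAR receptors themselves stood on opposite sides. Ppara, the receptor that drives fatty acid oxidation, read 9.32, 9.39 and 9.35 in the late day against 8.87, 9.0, 8.96 and 8.90 in the late night (0.42 ± 0.06 log2, adjusted p = 0.0177, lost in 5 of 7 fits). Cpt1a, which admits long-chain fatty acids to the mitochondrion, differed by 0.42 log2 (adjusted p = 0.0356, lost in 7 of 7 fits). Ppard read 7.13, 6.96 and 7.20 in the late day against 8.15, 8.21, 8.17 and 8.42 in the late night, and its call held (-1.14 ± 0.09 log2, adjusted p = 0.000545). Acnat2, an enzyme that conjugates acyl-CoA with amino acids, was lower in the late day as well (-0.76 ± 0.08 log2, adjusted p = 0.00453, held). Slc2a5, the fructose transporter, read 9.73, 9.66 and 9.67 in the late day against 9.26, 9.18, 9.21 and 9.19 in the late night (0.48 ± 0.06 log2, adjusted p = 0.00738, held) and was the 1 call among 15 glucose handling genes. Fdps was the 1 call among 11 cholesterol synthesis genes (-0.51 log2, adjusted p = 0.0177, lost in 5 of 7 fits).

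Other genes high in the late day had varied roles. Tc2n, a protein with C2 domains, read 7.28, 7.61 and 7.59 in the late day against 6.12, 6.32, 6.28 and 6.20 in the late night (1.26 ± 0.09 log2, adjusted p = 0.000522). Rnf24, a RING finger membrane protein, differed by 1.21 ± 0.10 log2 (adjusted p = 0.000633). Ttpa, the vitamin E transfer protein, differed by 0.96 log2 in its brighter probe set (adjusted p = 0.00354) and by 0.59 log2 in its other one. Etnppl, which breaks down phosphoethanolamine, and Castor1, the arginine sensor upstream of mTOR, differed by 0.95 and 0.78 log2 (adjusted p = 0.00564 and 0.00398), and these 5 calls held. Coq10b, a coenzyme Q binding protein, Lonrf1, a RING finger protein, and Herc3, a ubiquitin ligase, differed by 0.82, 0.80 and 0.79 log2 (adjusted p = 0.0231, 0.0143 and 0.0256) and lost their calls in 4, 3 and 4 of the 7 fits. Rbm3, a cold-inducible RNA-binding protein that responds to small falls in body temperature, was higher by 0.59 log2 in the late day (adjusted p = 0.0216, lost in 5 of 7 fits), and its 3 probe sets gave 0.59 to 0.62 log2. Of 13 glucocorticoid-responsive genes 2 were higher and none lower, against 0.673% and 0.372% of all genes, and the list's median was 0.432 log2. The 2 were Per1, already counted among the clock repressors (lost in 5 of 7 fits), and Klf15, a regulator of amino acid and glucose metabolism (0.39 log2, adjusted p = 0.0351, lost in 6 of 7 fits).

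A set of genes outside the naming rule was singled out after the values were seen, because they add known kidney functions to the 146. Slc6a20a, a proline transporter of the proximal tubule brush border, differed by 0.70 log2 (adjusted p = 0.000876), and Slc2a9, a urate transporter, by 0.67 log2 (adjusted p = 0.00461), and both calls held. Lpin1, a phosphatidate phosphatase of lipid synthesis, Pfkfb3, a controller of glycolysis, Nmrk1, a nicotinamide riboside kinase, and Pank3, of coenzyme A synthesis, were higher by 0.65, 0.55, 0.54 and 0.46 log2 in the late day (adjusted p = 0.0365, 0.0187, 0.0244 and 0.0264), and lost their calls in 4 or 5 of the 7 fits. On the other side Ndrg1, a gene induced by low oxygen, differed by -0.66 log2 (adjusted p = 0.00348, held). Fkbp4, a co-chaperone of steroid receptors, and Clpx, of the mitochondrial matrix protease, differed by -0.43 and -0.52 log2 (adjusted p = 0.0173 and 0.0264, lost in 4 and 6 of the 7 fits).

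Chaperones of the endoplasmic reticulum were lower in the late day as far as they were called. Of 16 such genes 3 were lower and none higher, with a median difference of -0.443 log2, and 12 had late day values entirely below the late night values. Over all genes, 0.372% were called lower and 4.15% had values so separated. This list too was chosen with earlier results of these data known, so its counts are not independent of them. Pdia6, a disulfide isomerase, read 10.40, 10.35 and 10.24 in the late day against 11.08, 10.98, 10.93 and 10.83 in the late night (-0.63 ± 0.08 log2, adjusted p = 0.00738). Calr, the calcium-binding chaperone calreticulin, read 11.08, 11.07 and 11.12 in the late day against 11.57, 11.51, 11.57 and 11.56 in the late night (-0.46 ± 0.06 log2, adjusted p = 0.00738). Both calls held, and that of Hsp90b1 was lost in 4 of 7 fits (-0.56 log2, adjusted p = 0.0229). Hspa5, the master chaperone BiP, read 11.08, 11.34 and 11.37 in the late day against 12.12 and 12.10 at ZT20 and 11.75 and 11.53 at ZT0, and missed the threshold (-0.61 log2, adjusted p = 0.0961). Hyou1 had 9.12, 9.23 and 9.19 in the late day against 10.22, 10.14, 9.69 and 9.57 in the late night, also without a call (-0.72 log2, adjusted p = 0.0709). Of 13 cytosolic and mitochondrial heat shock genes 1 was lower, Hsp90aa1 (-0.46 log2, adjusted p = 0.0456, lost in 6 of 7 fits), and the list's median was -0.105 log2. When each probe set was tested on its own, none of the 3 probe sets of Hsp90aa1 passed (adjusted p from 0.0504 to 0.0652). Fos, an immediate early gene, was the 1 call of 13 on its list (-0.67 log2, adjusted p = 0.0256, lost in 4 of 7 fits).

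The lists of the nephron's transport work held few calls or none. For lists of this size, no call is near the 1.05% of all genes and is not a result about them. Lists with 1 or 2 calls stood above that share, through single genes. None of 13 sodium transport genes was called (median 0.045 log2), nor of 16 genes of calcium, magnesium, potassium and phosphate handling (-0.079), 14 of acid and ammonia transport (0.015), 9 of the renin-angiotensin and natriuretic systems (0.02) or 13 of endothelin and nitric oxide signalling (-0.063). Slc34a1, the sodium-phosphate carrier of the proximal tubule, read 13.13, 13.14 and 13.12 in the late day and 13.14, 13.09, 13.13 and 13.13 in the late night. Slc12a1, the salt carrier of the thick ascending limb, read 11.99, 11.96 and 12.02 in the late day and 11.98, 11.97, 11.94 and 12.08 in the late night, and Slc12a3, that of the distal convoluted tubule, differed by 0.05 ± 0.09 log2. Both overlapped between the windows. Usp2 was the 1 call among 14 regulators of distal sodium transport. Amino acid carriers gave 1 call each way, Slc7a9, the light chain of the cystine carrier, at 0.35 log2 and Slc7a8 at -0.43 log2 (adjusted p = 0.0458 and 0.0256, lost in 7 and 5 of 7 fits). Of 15 such carriers, 2 had late day values entirely above and 5 entirely below the late night values. Of 17 organic ion carriers 6 lay entirely above and 0 entirely below, where the shares over all genes were 10.8% and 4.15%. Of the organic ion and drug lists, Slc22a4, a carrier of ergothioneine and carnitine, and Ephx1, microsomal epoxide hydrolase, were higher by 0.36 and 0.63 log2 (adjusted p = 0.0367 and 0.0177, lost in 6 and 4 of 7 fits). With the pool number as a block the drug and steroid list gained Cyp2e1 (0.39 log2, adjusted p = 0.0271). No call fell in the lists of amino acid catabolism, heme, oxidant defence, ubiquitin ligases and autophagy, cell cycle, tubular injury, or 20-HETE and epoxygenase enzymes. The 15 sex-dimorphic kidney genes had no call and a median of 0.202 log2, and with the pool number as a block 2 were higher, Azgp1 and Pzp (1.15 and 0.76 log2, adjusted p = 0.0427 and 0.0049). In data simulated on these arrays with 200 changed genes, 93.5% of changes of 1 log2, 62.5% of 0.5 log2 and 0% of 0.25 log2 were recovered. The simulated spread was independent between arrays, without deviations shared by pools, so these shares hold for that setting only.

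**Figure D4:**
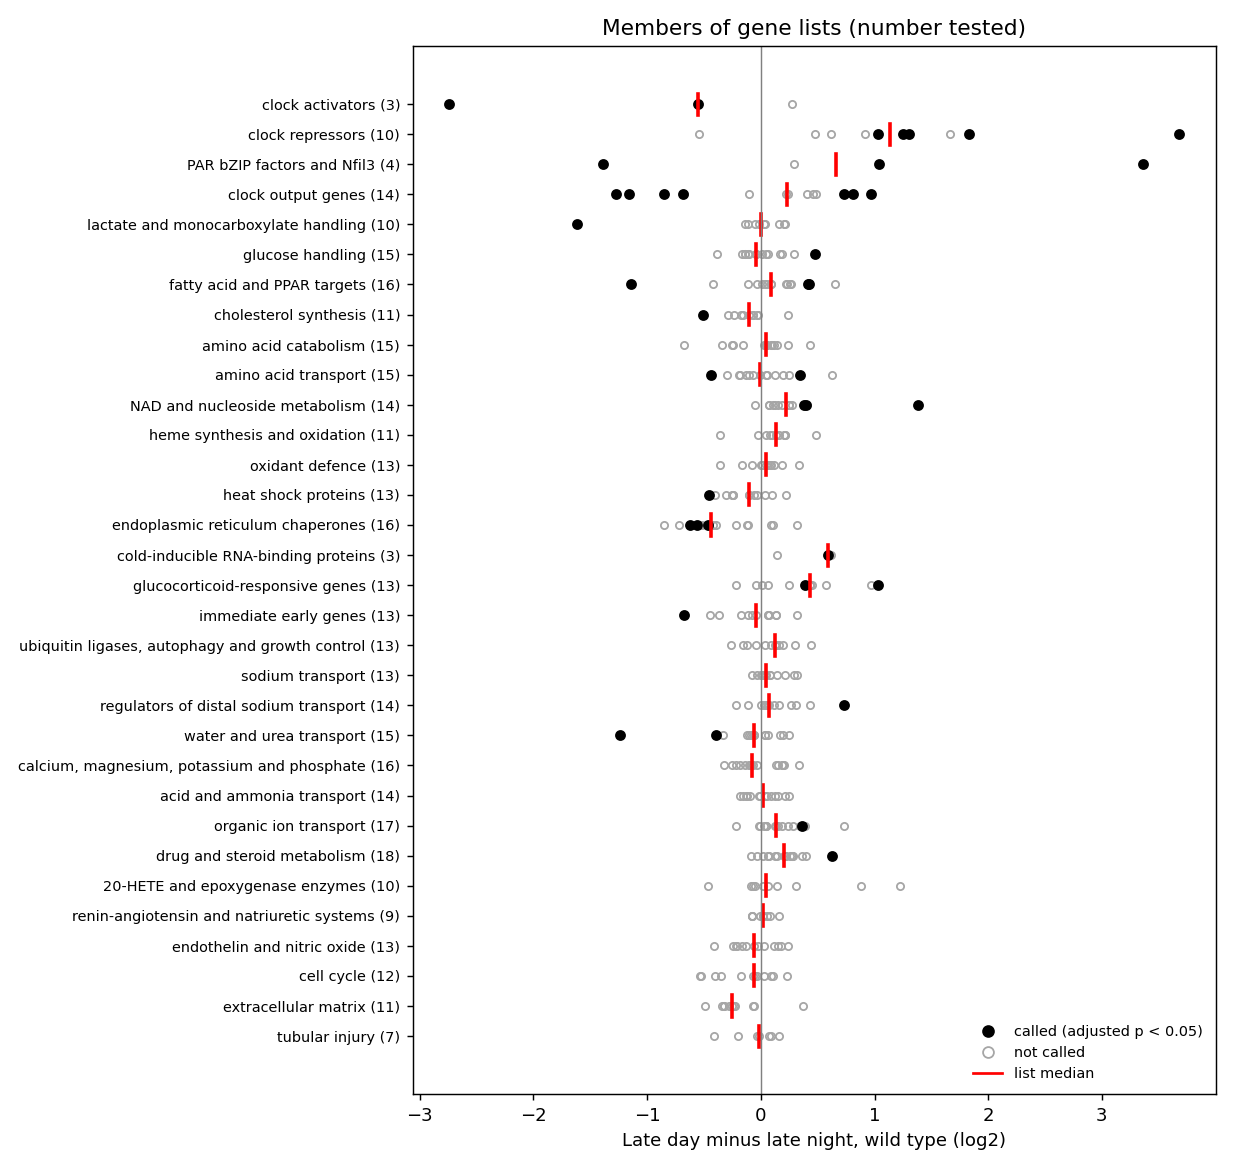
Late day minus late night difference in log2 (horizontal) for the tested members of 32 gene lists (rows, number tested in brackets). Filled circles passed an adjusted p of 0.05, open circles did not, and red bars are list medians. Called members lie to the right for the clock repressors and to the left for the endoplasmic reticulum chaperones, and the ion transport lists gather near 0.

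The WT times between the windows were compared with each other. At ZT4 against ZT16, with 2 arrays each in a fit of the 6 WT times, 14 genes (0.1%) were called, 5 of them (0.0358%) higher and 9 (0.0644%) lower at ZT4, and none was among the 146. Leaving out ZT16 pool 1 or ZT16 pool 2 left 0 calls, leaving out ZT4 pool 2 left 4 and leaving out ZT4 pool 1 left 14, and 1449 genes passed an unadjusted p of 0.05. Of the 14, 3 were clock repressors that were not called between the windows in the fit of the 7 WT arrays. Nr1d1 read 10.04 and 9.22 at ZT4 against 7.25 and 7.55 at ZT16 (2.23 ± 0.22 log2, adjusted p = 0.0133). Per2 and Cry1 ran opposite to it, with differences of -1.71 and -1.81 log2 (adjusted p = 0.0133 for each). Of the endoplasmic reticulum chaperones, 4 of 16 were lower at ZT4, Hspa5 among them at 11.33 and 11.38 against 12.14 and 12.28 at ZT16 (-0.85 log2, adjusted p = 0.0211). Ciart at 6.44 and 5.69, against 5.85 and 6.37 at ZT16, and Arntl at 7.20 and 7.74, against 7.37 and 7.28 at ZT16, overlapped. Absence of a call with 2 arrays a side does not place a gene midway. Wee1 read 8.0 and 8.09 at ZT4 against 8.68 and 8.94 at ZT16, without overlap (-0.77 log2, adjusted p = 0.103). Tspan4 and Lonrf1 differed by -0.58 and -0.64 log2 (adjusted p = 0.146 and 0.242), and Herc3 read 9.20 and 9.29 at ZT4 against 8.18 and 8.64 at ZT16 (0.84 log2, adjusted p = 0.178). Of the 94 genes higher in the late day, 66 had a ZT4 mean above that at ZT16, and so had 32 of the 52 lower genes and 8263 of all 13967.

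The same windows were compared in KO kidneys, with 4 arrays each. The Clock probe set read 8.73 to 9.11 on the KO arrays and 8.47 to 9.16 on the WT arrays, so it did not tell the genotypes apart, and the sources used here do not say whether its probes lie in the deleted part. The KO arrays at ZT20 stood apart in Slco1a1, an organic anion carrier, which they held at 6.30 and 5.18 while every other KO array was at 8.15 or above, and likewise in Cyp2j13 (8.60 and 8.42, others 9.81 or above), Cyp4b1 (11.60 and 11.01, others 12.04 or above) and Apob (9.23 and 8.98, others 9.73 or above). In KO 214 genes (1.53%) were called between the windows, 163 (1.17%) higher and 51 (0.365%) lower in the late day, and without the KO ZT20 arrays, with the late night from ZT0 alone, 3 genes (0.0215%) were, 2 (0.0143%) higher and 1 (0.00716%) lower. The 163 included 8 of the 15 sex-dimorphic genes, whose median difference was 0.894 log2 in KO and 0.162 log2 in WT, and without the KO ZT20 arrays none of the 15 was called in KO and their KO median was 0.365 log2. Their part in the KO counts was not tested. Of the 94 genes higher in WT, 93 had a KO difference above 0, against 48.3% of all genes, and 28 were called higher in KO, but 0 without the KO ZT20 arrays. Of the 52 genes lower in WT, 48 had a KO difference below 0 and 15 were called lower in KO, but 1 without those arrays. Without the KO ZT20 arrays 92 and 44 kept these signs. The median difference over the 94 genes was 0.295 log2 in KO and 0.491 log2 in WT, and over the 52 genes -0.252 log2 in KO and -0.599 log2 in WT, where the WT arrays had chosen the genes. Without the KO ZT20 arrays the KO medians were 0.222 and -0.224 log2.

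A test of the KO minus WT difference called 9 genes (0.0644%), all with KO above WT, and 739 genes passed an unadjusted p of 0.05. Arntl read 7.86, 7.04, 8.20 and 7.91 in the KO late day against 8.63, 8.64, 8.41 and 8.31 in the KO late night. Its difference between the windows was -0.75 log2 in KO and -2.75 log2 in WT (KO minus WT 2.00 ± 0.22 log2, adjusted p = 0.00203). Rhobtb1 differed by -0.30 log2 in KO and -1.26 log2 in WT (0.97 ± 0.11 log2, adjusted p = 0.00203). These were also the 2 genes called without the KO ZT20 arrays, and neither lost its call in any of 16 fits, which left out 1 array in turn or the KO ZT20 arrays together. Ypel2 and Nt5e, the other members of the 146 that were called here, lost their calls in 12 of the 16 each.

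Of the 9 genes, 3 encode chaperones of the endoplasmic reticulum. Hspa5 differed by 0.06 log2 in KO and -0.66 log2 in WT (adjusted p = 0.0153, lost in 4 of 16 fits), Hyou1 by -0.10 log2 in KO and -0.74 log2 in WT (adjusted p = 0.0219, lost in 9) and Creld2 by 0.31 log2 in KO and -0.57 log2 in WT (adjusted p = 0.0229, lost in 8). The median over the 16 chaperones was -0.10 log2 in KO and -0.445 log2 in WT. Ciart read 5.32 and 5.29 in KO pool 1 and 7.03 and 7.38 in KO pool 2 in the late day, against 4.63 to 5.40 in the KO late night. Its KO minus WT difference was -2.35 ± 0.60 log2 and was not called (adjusted p = 0.418). Dbp likewise read 8.04 and 7.51 in KO pool 1 and 9.69 and 9.39 in KO pool 2 in the late day, against 7.20 to 7.45 in the KO late night (-2.10 log2, adjusted p = 0.448). Tc2n had nearly the same difference in both genotypes, 1.29 log2 in KO and 1.21 log2 in WT (KO minus WT 0.08 ± 0.33 log2).

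**Figure D5:**
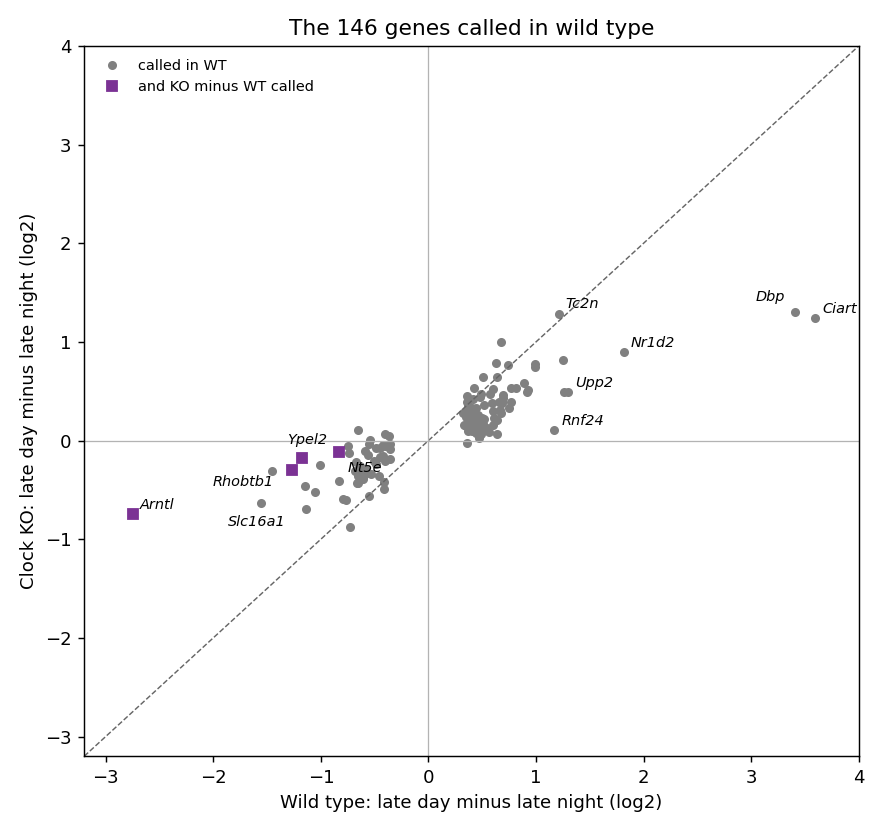
Late day minus late night difference in KO (vertical, log2) against that in WT (horizontal, log2) for the 146 genes called in WT, both from the fit of all 22 arrays. Purple squares mark the 4 of them with a called KO minus WT difference, and the dashed line marks equal differences. Most points lie between the horizontal axis and the dashed line, with Tc2n near the line and Ciart, Dbp and Arntl far from it.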

How the data were processed

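Arrays of wild-type (WT) and Clock knockout (KO) mouse kidney were used as the authors' deposited table of log2 values, normalized by RMA per the submitters' processing notes. The software version and genome build were not given in the sources used here. GEO's platform annotation paired 21789 of the 35556 probe sets with 1 gene symbol and 1621 with several, and did not list 12146; RefSeq held 21698 of the first kind. Each gene took its probe set of highest mean over all arrays, and the 13967 genes above the 30th percentile of that mean (5.21 log2) were tested, including 444 of 510 genes listed in 47 gene lists. The members and lists were chosen with earlier results of these data known. Array medians lay between 5.88 and 6.01; the number of arrays limits the precision, and scan batches are not given. Late day and late night were compared in a limma fit of the 7 WT arrays (limma 3.58.1, R 4.3.3) with Benjamini-Hochberg adjustment over all genes. ZT4 against ZT16 used the 6 WT time means, and KO against WT the 12 genotype-by-time means of all 22 arrays, which takes the spread of a single-pool time from the rest. The fit of the 7 WT arrays was tested on simulated data, and the other fits were not. Named genes are the 20 largest called differences each way with groups that do not overlap, all clock list members, Clock, up to 4 called members of each other list (or 2 of highest level where none was called) and the first-listed 2 markers of each cell type; genes called in the KO against WT test were added. Promoters were matched by gene identifier in Python 3.11.15. Alternatives were other filters, scalings, spreads and array subsets, a fit of every probe set and a block for the pool number. The pool numbers of the titles were checked as a pairing through the deviations of pool 1 from the mean of its time: these correlated at 0.325, 0.36 and 0.548 between the 3 WT window times with 2 pools, so the blocked values of the window comparison are given where they change a call or count; over all WT times they ran from -0.411 to 0.548, and over WT and KO window times from 0.0035 to 0.548, so the other comparisons were left unpaired.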

Additional observations from a re-analysis of the deposited data

Results flagged for a closer look

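Of 144 named genes, 9 had 1 late night WT array far from the other 3 by Dixon's test, which by chance picks about 1 in 20 groups. The array set apart was ZT20 pool 2 for Ppm1h (8.53 log2), Gatm (12.16), Gpx1 (12.43) and Calb1 (11.06), ZT20 pool 1 for Fos (7.19) and Ttr (10.22), ZT0 pool 1 for Glud1 (11.52), and ZT0 pool 2 for Rhobtb1 (9.39) and Hsp90aa1 (12.00). Rhobtb1 and Ppm1h kept their calls in every fit without 1 array, and Fos and Hsp90aa1 did not.

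The late day minus late night difference in KO lay above that in WT for 9 genes by the test of the difference itself. KO minus WT was 2.00 log2 for Arntl, 0.97 for Rhobtb1, 0.88 for Creld2, 0.72 for Hspa5, 0.64 for Hyou1, 0.71 for Nt5e, 1.0 for Ypel2, 0.56 for G6pc, which releases glucose from glucose-6-phosphate, and 2.37 for Nat8f5, of the N-acetyltransferase family. Nat8f5 read 7.31, 7.91, 7.96 and 9.19 in the KO late day and 4.49, 4.86, 5.49 and 5.75 in the KO late night, against overlapping windows in WT, and both it (adjusted p = 0.0491) and G6pc (0.0319) lost their calls in 15 of 16 fits that left out 1 array or the KO ZT20 arrays.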

How the results depend on the processing

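Over all alternatives, single-gene values were on the same side of the threshold in 2312 cases, lost a call in 355, gained one in 38 and changed sign without being called in 101, and a called value changed sign in 0 cases. The 146 calls (94 higher, 52 lower in the late day) became 87 without the filter on low values (48 higher) and 319 above the 50th percentile (220 and 99), 384 with a trended robust spread (263 and 121) and 284 with array weights (184 and 100). Subtracting array medians gave 60 higher, a repeated quantile normalization 86 lower, the 6 WT time means 61 higher, and the 12 means 86 lower. Pool 1 arrays alone gave 10 calls (4 and 6) and pool 2 arrays alone 33 (17 and 16). Leaving out 1 array gave 45 to 167 calls, 23 to 108 higher and 22 to 59 lower. For ZT4 against ZT16, the 14 calls became 69 with the 12 means and 0 to 14 without 1 array. The 9 KO minus WT calls ranged from 2 to 12 without 1 array, and 2 stood without the KO ZT20 arrays. Without those arrays, a setting added after seeing the data, the 214 KO calls became 3, with 2 higher and 1 lower in place of 163 and 51. With the replicate block for pool number the window comparison had 136 higher and 81 lower genes (217 in all), and beside the list members given in the report it gained Dnajb11 and Klf9 and lost no call. ZT4 against ZT16 and the KO minus WT test, where pool numbers could not be taken as pairing the arrays, gave 7 and 8 calls with the block, and there Hspa5, Hyou1 and Alas1 lost theirs at ZT4 against ZT16, and Nat8f5 and Ypel2 in KO minus WT. The cause of these shifts was not tested. With 3 arrays against 4 and 1 array at ZT8, the late day rests mostly on ZT12.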
